A study of Mus musculus with 47 samples.

Results

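The immunoglobulin heavy and light chain genes of mouse lung were followed through a ragweed allergy experiment with 75 Affymetrix probe sets, out of 49372 distinct probe sets in the 6 tables of the series. A probe set, a small group of short probes against 1 target sequence, was included if at least 1 of its annotated gene symbols named a constant, variable, joining or diversity segment of the heavy (Igh), kappa light (Igk) or lambda light (Igl) chain. Ighmbp2, which encodes a DNA-binding protein, was left out, and probe sets matched to several chain genes were kept. By chain, 16 were annotated to the mu constant gene alone, 7 to gamma, 5 to alpha, 1 to delta and 3 to several heavy genes. Another 6 were heavy variable, 28 kappa variable, 5 matched kappa variable genes together with Igkc, the kappa constant gene, and 4 were lambda.

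An antibody is built from paired heavy and light chains, each with a variable region that binds antigen and a constant region. The heavy constant gene sets the class: mu gives IgM, the class of naive and early responding B cells, and gamma, alpha and epsilon give IgG, IgA and IgE after class switching. Each B cell joins 1 of many variable genes to its constant gene, and plasma cells, the end stage of B cell development, devote much of their messenger RNA to the joined chains. In the airway, antibody-secreting cells supply IgA and IgM for transport across the epithelium, and IgE on mast cells drives the allergic reaction. Because variable genes of a family are alike in sequence, and because cloned antibody sequences were often used to design these probes, a probe set can read several variable genes, or a whole rearranged transcript. The Affymetrix ID ending _f_at marks probes shared by members of a gene family.

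Mice were sensitized on day 0 and again on day 3, and were challenged by the tracheal route on day 10 and on day 17. Whole lung RNA came from lungs collected 24 h or 72 h after the second challenge. The ragweed groups received ragweed pollen protein, with alum named as adjuvant at sensitization, and the PBS groups received phosphate-buffered saline at each step. The labels name alum for the ragweed mice alone, so ragweed and alum cannot be told apart. They give no strain, age, sex or genotype. Each of the 4 groups (PBS 24 h, ragweed 24 h, PBS 72 h and ragweed 72 h) had 2 samples, coded 1a and 1b. Nothing in the labels says that these were separate animals, so p-values reflect only how far apart the paired codes lie, and that spread may be technical.

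The values are array intensities, which have no common scale between probe sets, so the level of 1 probe set is not compared with that of another, and medians or sums over a list serve only to set samples side by side. On the first-version A array, which carries 60 of the tested members, the deposited PBS arrays had trimmed mean intensities of 222.7 to 373.5 and the ragweed arrays 792.3 to 793.7, so scale and treatment went together before all arrays were brought to 1 scale; what remains of that was not tested. Values below the 40th percentile of a table were raised to it (an intensity of 291.6 on A arrays), a level called the floor here. The main tables carried 73 of the 75 probe sets, 62 of which were above the floor on at least 2 arrays and were tested. Of these 62, 14 passed that filter only through the ragweed 72 h samples, where they are high, so the other 48 are given beside the totals. The labelled tissue was borne out by the lung epithelial markers Sftpc, the surfactant protein C gene, at 50946 to 71315 in the 8 samples, and Scgb1a1, the club cell secretory protein gene, at 30595 to 80239. Another listed marker, the surfactant protein D gene Sftpd, lay between the floor and 441.2. In bulk lung RNA, more B lineage cells and more immunoglobulin RNA per cell cannot be told apart.

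Ragweed lungs at 72 h had the highest median immunoglobulin intensity. Among the 62 tested immunoglobulin probe sets, 33 and 26 were above the floor in the PBS 24 h samples, 41 and 39 in the ragweed 24 h samples, 41 and 44 in the PBS 72 h samples, and 58 and 56 in the ragweed 72 h samples. The median intensity over the 62 was 346.1 and 291.6 in PBS 24 h, 403.2 and 378.3 in ragweed 24 h, 469.9 and 462.2 in PBS 72 h, and 1092 and 967 in ragweed 72 h. Counting the 14 tilts both summaries toward ragweed 72 h by construction. Over the other 48, the median intensity was 410.4 and 344.5 in PBS 24 h, 633.6 and 600.1 in ragweed 24 h, 624.9 and 650.9 in PBS 72 h, and 1725 and 1483 in ragweed 72 h. The number of the 48 above the floor was 32 and 26 in PBS 24 h, 41 and 38 in ragweed 24 h, 39 and 43 in PBS 72 h, and 45 and 42 in ragweed 72 h. The medians of ragweed 72 h thus lay above those of the 6 other samples, whereas the counts above the floor overlapped between PBS 72 h and ragweed 72 h. Within a group the samples were close: the median difference between 1a and 1b over the 62 ran from 0.032 on the log2 scale in PBS 24 h to 0.186 in ragweed 72 h, and 4 pairs in all differed by more than 1. The small PBS 24 h value partly reflects probe sets at the floor in both samples.

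**Figure D1:**
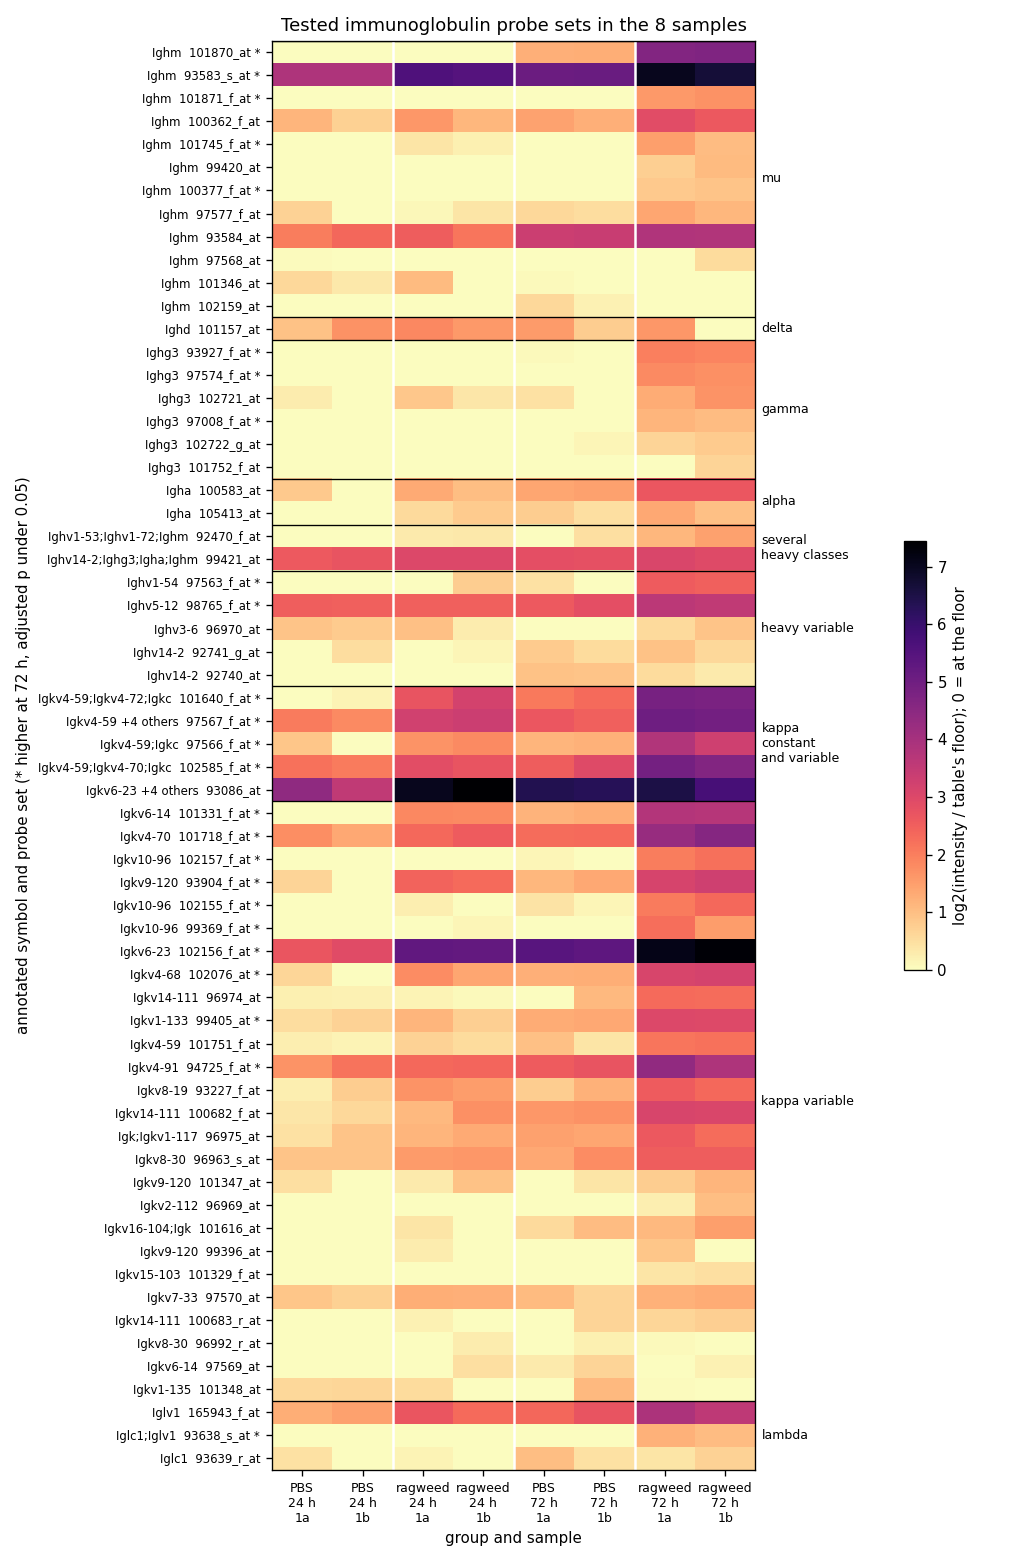
Each row is 1 of the 62 tested immunoglobulin probe sets, grouped by chain class, and each column 1 of the 8 samples; the colour is log2 of intensity over the table's floor, so 0 is the floor. An asterisk marks the 25 probe sets higher in ragweed at 72 h. The 2 right-hand columns, ragweed 72 h, are the darkest in most rows, which the 14 rows that passed the filter only through these samples favour by construction.

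At 24 h after the second challenge, 7 of the 62 immunoglobulin probe sets (11.3%) were higher in ragweed than in PBS lungs in the limma fit with Benjamini-Hochberg adjustment over all 25250 probe sets tested, against 0.21% of all those tested. No member was lower (0.0198% of all probe sets were), and at an unadjusted p under 0.05 limma gave 17 members higher and 0 lower. Of all 25250 probe sets, 2190 passed that unadjusted threshold in either direction. Of the 7, 6 were kappa probe sets and 1 read Ighm. In 26 of the 62 (41.9%) both ragweed samples exceeded both PBS samples, against 16.3% of all probe sets tested. The median difference was 0.22 on the log2 scale over the 62 and 0.39 over the 48, beside 0 over all probe sets tested.

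The largest of the 7 differences was that of Igkc-containing 93086_at, matched to Igkv6-23, Igkv4-53, Igkv8-30, the joining segment Igkj1 and Igkc. It read 6253 and 3410 in PBS 24 h and 37862 and 50946 in ragweed 24 h, a rise of 3.25 ± 0.32 (SE, n = 2 per group, limma adjusted p = 0.00528) or 9.51-fold. Its PBS 72 h samples read 24501 and 22861 and its ragweed 72 h samples 26269 and 15520, so the 72 h groups overlapped. Without ragweed 24 h sample 1b the 24 h rise was 3.04 and missed the threshold (adjusted p = 0.076). The other array version, described further on, did not give this probe set the same PBS levels.

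The kappa variable gene Igkv6-23 (102156_f_at) read 1865 and 2195 in PBS 24 h and 11084 and 10783 in ragweed 24 h. That is a rise of 2.43 ± 0.12 (adjusted p = 8.36e-05), and the groups did not overlap. The probe set 101640_f_at, matched to Igkv4-59, Igkv4-72 and Igkc, read 292 and 329 in PBS 24 h, 1 of them at the floor, and 1921 and 2673 in ragweed 24 h, a rise of 2.87 ± 0.18 (adjusted p = 0.000443). Family-wide 97567_f_at, matched to 4 Igkv4 genes and Igkc, rose by 1.36 ± 0.13 from 1213 and 1020 to 2775 and 2917 (adjusted p = 0.00439), and was not called without ragweed 24 h sample 1a or 1b (adjusted p = 0.0562 and 0.0701). All of these read segments of the kappa chain, the light chain of most mouse antibodies.

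Igkv9-120 (93904_f_at) read 462 and 292 in PBS 24 h and 1570 and 1446 in ragweed 24 h, a rise of 2.04 ± 0.25 (adjusted p = 0.0219). Igkv6-14 (101331_f_at) was at the floor in both PBS 24 h samples and read 1040 and 1020 in ragweed 24 h, a rise of at least 1.82 ± 0.19 (adjusted p = 0.00658). The mu probe set picked by the naming rule, Ighm 93583_s_at, read 4240 and 4245 in PBS 24 h and 14150 and 13020 in ragweed 24 h, a rise of 1.68 ± 0.12 or 3.20-fold (adjusted p = 0.000697). It was the single heavy chain probe set among the 7. The Igkv9-120 call was lost without any 1 of the samples other than PBS 24 h 1a (adjusted p = 0.0615 to 0.13). That of Igkv6-14 was lost without either ragweed 24 h sample (adjusted p = 0.0701 and 0.0851) or either ragweed 72 h sample (adjusted p = 0.0581 and 0.057), which enter through the shared spread. For 5 of the 6 tested gamma probe sets, all 4 samples of 24 h were at the floor.

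These 24 h rises depend on the PBS group they are set against. Against the PBS 72 h samples, 0 of the 62 probe sets were higher in ragweed 24 h by limma (0.182% of all probe sets were), with 7 higher and 7 lower at an unadjusted p under 0.05. In this comparison 2768 of all 25250 probe sets passed the unadjusted threshold in either direction. Igkv6-23 then differed by -0.14 (102156_f_at, adjusted p = 0.709) and Ighm 93583_s_at by 0.44. Without ragweed 24 h sample 1a the count of 7 became 4, and without sample 1b it became 3.

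At 72 h, 25 of the 62 immunoglobulin probe sets (40.3%) were higher in ragweed than in PBS, against 0.333% of all probe sets tested, and they came from 6 of the 9 chain groupings. In the gamma and lambda groupings, every call was of a probe set that passed the filter only through the ragweed 72 h samples. No member was lower in the limma fit, while 0.194% of all probe sets were. At an unadjusted p under 0.05, 44 members were higher and 2 lower, beside 2431 of all 25250 probe sets in either direction. In 49 of the 62 (79.0%) both ragweed samples exceeded both PBS samples, against 18.0% of all probe sets. Including the 14 that passed the filter only through the ragweed 72 h samples tilts this share upward by construction. It was not counted without them. The median difference was 1.08 over the 62 and 1.12 over the 48 that passed the filter without the ragweed 72 h samples, 17 of which were called. Over all probe sets tested the median was 0.

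The count at 72 h moved with single libraries. It was 7 without either PBS 72 h sample, 10 without ragweed 72 h sample 1a, 11 without 1b and 14 without either ragweed 24 h sample, which enter through the shared spread. Against the PBS 24 h samples it was 38 of 62, with 0.622% of all probe sets higher, and all 25 were among the 38. Over the 48 that passed the filter without the ragweed 72 h samples, 29 were called against PBS 24 h.

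Mu probe sets gave very different values. Of the 12 tested, 4 only through the ragweed 72 h samples, 5 were higher at 72 h, and the differences ran from -0.39 to 3.41 around a median of 0.89. Ighm 101870_at was at the floor in all 4 samples of 24 h, read 690 and 707 in PBS 72 h and reached 7292 and 7592 in ragweed 72 h. Its rise of 3.41 ± 0.21 (adjusted p = 0.000878), or 10.7-fold, was the largest of all 62 members at 72 h. Ighm 93583_s_at read 9835 and 10114 in PBS 72 h and 37862 and 29833 in ragweed 72 h, a rise of 1.75 ± 0.12 (adjusted p = 0.00105). Both groups of samples lay apart in each of these probe sets.

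The mu probe set 93584_at, chosen after its values were seen, read 2926 and 3043 in PBS 72 h and 4178 and 4023 in ragweed 72 h, a difference of 0.46 ± 0.17 that was not called (adjusted p = 0.434). The remaining called mu probe sets, 101871_f_at, 101745_f_at and 100377_f_at, were at the floor in both PBS 72 h samples, so their rises of 1.65, 1.28 and 0.88 are lower bounds. The mu probe sets that passed the filter only through the ragweed 72 h samples include some of these called ones, which favours their rise by construction. Probe sets that carry the symbol Ighm therefore did not report 1 common difference. The sources used here do not say which of them read the mu constant region and which a variable region of a rearranged mu transcript.

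The gamma class had 6 tested probe sets, annotated to Ighg3, the IgG3 constant gene. Of these, 5 passed the filter only through the ragweed 72 h samples, so that their direction at 72 h was fixed by the filter, and the 3 that were called are among the 5. The differences at 72 h ran from 0.33 to 1.91. Ighg3 93927_f_at lay at the floor in all 4 samples of 24 h, read 308 and 292 in PBS 72 h and 1152 and 1099 in ragweed 72 h, a rise of 1.91 ± 0.18 (adjusted p = 0.0044). Both 97574_f_at and 97008_f_at were at the floor in all 6 samples outside ragweed 72 h, and rose there by at least 1.78 ± 0.17 and at least 1.09 ± 0.15. The one that passed the filter without them, 102721_at, read 402 and 292 in PBS 72 h and 716 and 930 in ragweed 72 h, a difference of 1.25 ± 0.29 that did not pass (adjusted p = 0.157). No member carried the symbol Ighg1, Ighg2b, Ighg2c or Ighe, so the constant genes of IgG1, IgG2 and IgE have no annotated value here.

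The alpha constant gene Igha, of the main mucosal antibody class, had 2 tested probe sets. Igha 100583_at read 516 and 292 in PBS 24 h, 729 and 579 in ragweed 24 h, 762 and 807 in PBS 72 h, and 1838 and 1853 in ragweed 72 h. The groups did not overlap at either time, yet the differences of 0.74 at 24 h and 1.24 ± 0.31 at 72 h were not called (adjusted p = 0.549 and 0.194). With PBS 24 h, or both PBS groups, as reference the ragweed 72 h level of 100583_at was called. The second, Igha 105413_at on the B array, was at the floor of 356.4 in PBS 24 h and read 525 and 621 in ragweed 24 h, 614 and 493 in PBS 72 h, and 914 and 695 in ragweed 72 h. Its 72 h difference was 0.53 ± 0.37 (adjusted p = 0.712) on version 2 of the B array and -0.45 ± 0.80 (adjusted p = 0.907) on the first version. Ighd 101157_at, the delta gene of IgD on naive B cells, read 851 and 498 in PBS 72 h and 898 and 292 in ragweed 72 h, a difference of -0.35 ± 0.54 (adjusted p = 0.894). Its ragweed 72 h samples differed by 1.62 on the log2 scale, the widest gap between the samples of a group among the 62.

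Heavy variable genes were mixed. Of 5 tested, 2 were higher at 72 h. Ighv1-54 (97563_f_at) read 403 and 292 in PBS 72 h and 1735 and 1625 in ragweed 72 h, a rise of 2.29 ± 0.32 (adjusted p = 0.0233). Without PBS 72 h sample 1a this rise was 2.53 (adjusted p = 0.105) and without 1b it was 2.06 (adjusted p = 0.178). The call was also lost without either ragweed 72 h sample (adjusted p = 0.149 and 0.126) or either PBS 24 h sample (adjusted p = 0.0652 and 0.0655). Ighv5-12 (98765_f_at), already above the floor in every sample, rose from 1761 and 2088 to 3566 and 3347, by 0.85 ± 0.13 (adjusted p = 0.0339). Neither probe set of Ighv14-2 passed, and its 92740_at differed by -0.52, with 563 and 552 in PBS 72 h and 424 and 357 in ragweed 72 h.

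**Figure D2:**
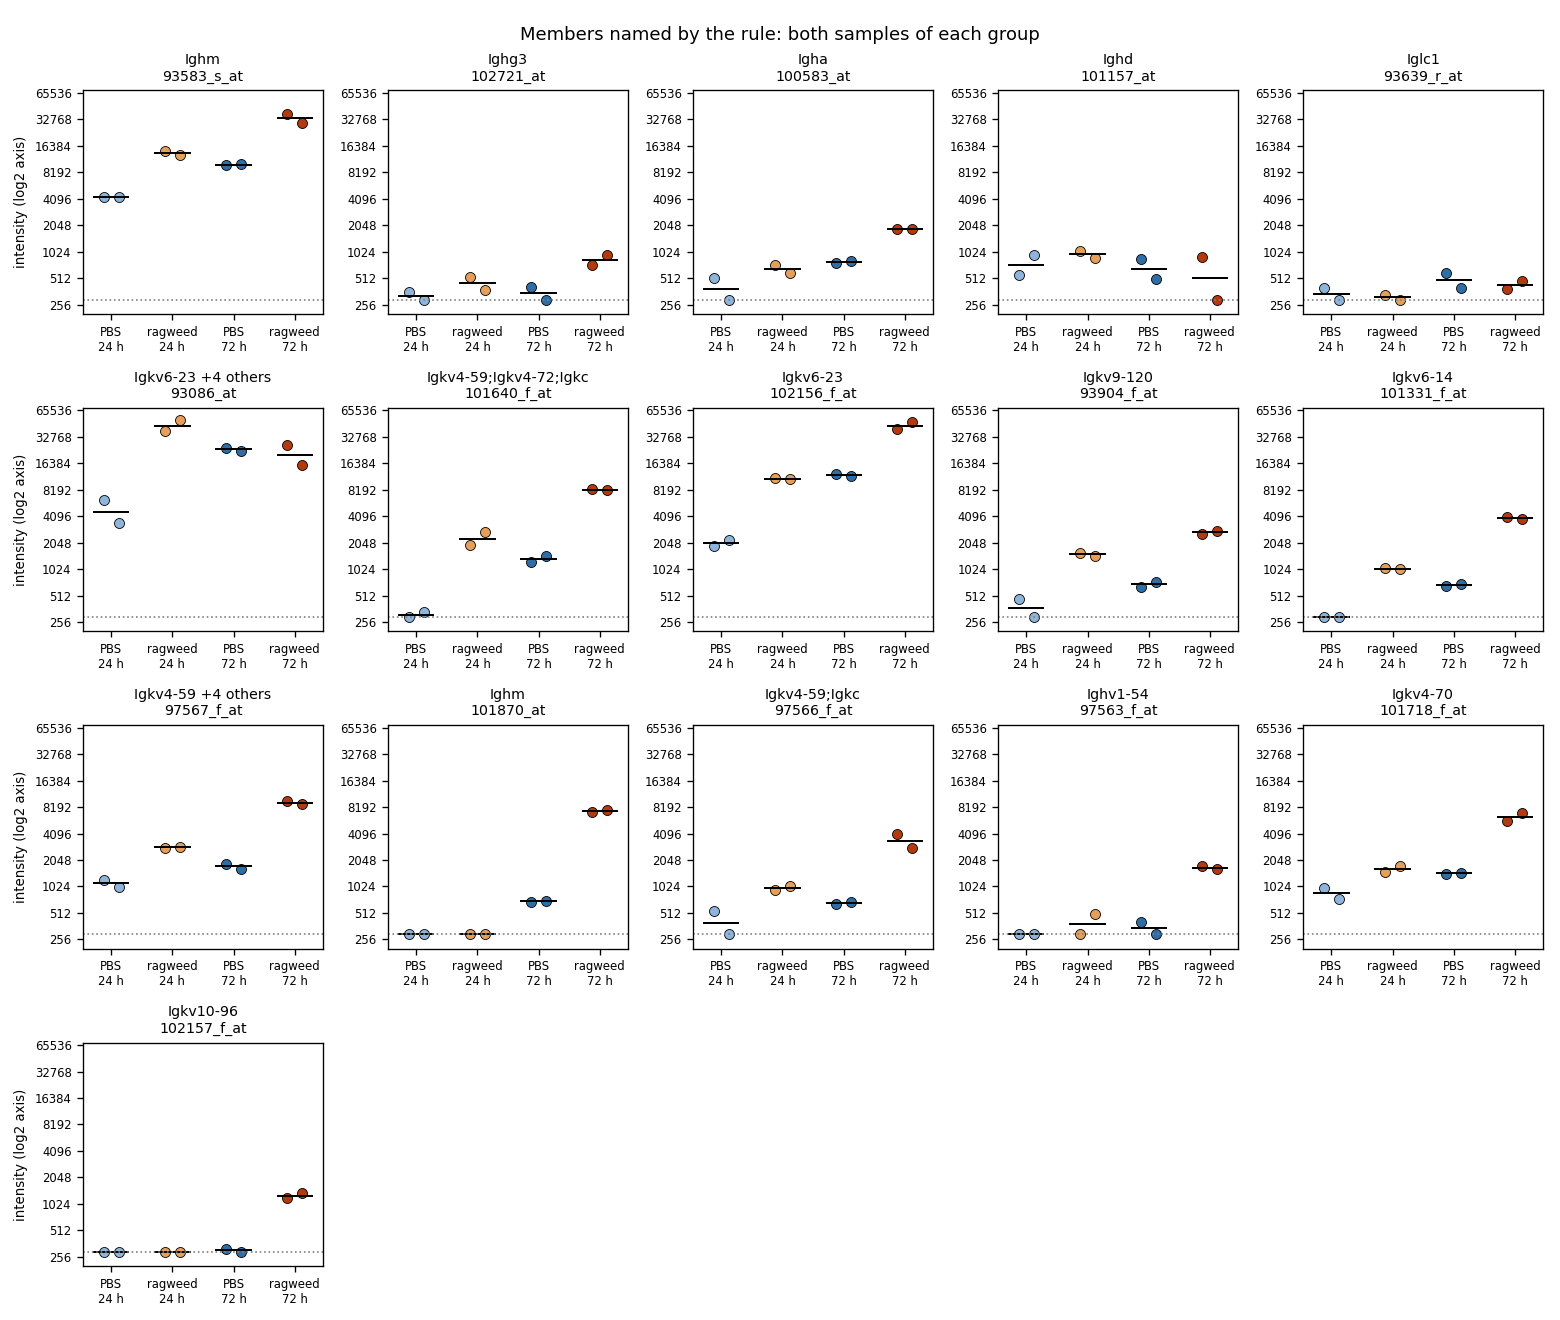
Intensity on a log2 axis of 16 immunoglobulin probe sets in the 4 groups; each point is 1 sample, the bar is the mean of the 2 log2 values and the dotted line is the floor. Ragweed 72 h is the highest group in most panels, Igkc-containing 93086_at (Igkv6-23 and others) is highest at 24 h, and Ighm 101870_at lies at the floor in all 4 samples of 24 h.

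Kappa light chain probe sets made up 14 of the 25 at 72 h. Of the 5 that match variable genes together with Igkc, 4 were higher, with a median difference of 2.35 over the 5. The probe set 101640_f_at (Igkv4-59, Igkv4-72 and Igkc) read 1245 and 1459 in PBS 72 h and 8395 and 8031 in ragweed 72 h, a rise of 2.61 ± 0.18 or 6.09-fold (adjusted p = 0.00124). In 97567_f_at the PBS 72 h samples read 1850 and 1632 and the ragweed 72 h samples 9531 and 8910, a rise of 2.41 ± 0.13 (adjusted p = 0.000588). The probe set 97566_f_at (Igkv4-59 and Igkc) rose by 2.35 ± 0.31 from 648 and 680 to 4045 and 2820 (adjusted p = 0.0209). Without PBS 72 h sample 1a or 1b the adjusted p of 97566_f_at was 0.163 and 0.154, without ragweed 72 h sample 1a or 1b 0.184 and 0.0952, and without ragweed 24 h sample 1a or 1b 0.0632 and 0.0637. The exception was 93086_at, at -0.23 ± 0.32 (adjusted p = 0.875).

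Of 26 tested kappa variable probe sets, 4 only through the ragweed 72 h samples, 10 were higher at 72 h, 23 had a positive difference and the median was 1.45. Igkv6-14 (101331_f_at) read 661 and 699 in PBS 72 h and 3965 and 3803 in ragweed 72 h, a rise of 2.51 ± 0.19 (adjusted p = 0.00137). For Igkv6-23 (102156_f_at) the values were 12420 and 11638 in PBS 72 h and 40262 and 48010 in ragweed 72 h, a rise of 1.87 ± 0.12 (adjusted p = 0.000917). The samples of the 72 h groups did not overlap in either gene.

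Igkv4-70 (101718_f_at) rose by 2.12 ± 0.18, from 1422 and 1457 to 5629 and 7006 (adjusted p = 0.00284), and missed the threshold without PBS 72 h sample 1a or 1b (adjusted p = 0.0559 and 0.0501). The Igkv10-96 probe set 102157_f_at passed the filter only through the ragweed 72 h samples, which favours a rise there by construction. It read 317 and 292 in PBS 72 h and 1190 and 1355 in ragweed 72 h, a rise of 2.06 ± 0.20 (adjusted p = 0.0044). Its adjusted p was 0.0561 without PBS 72 h sample 1a and 0.0707 without 1b. Igkv9-120 (93904_f_at) rose by 1.96 ± 0.25, from 636 and 739 to 2553 and 2792 (adjusted p = 0.0175), and without PBS 72 h sample 1a or 1b its adjusted p was 0.139 and 0.123. Leaving out a ragweed sample also ended that call, with an adjusted p of 0.149 and 0.147 for those of 72 h and 0.0616 and 0.0601 for those of 24 h. In each of these genes the ragweed samples lay well above the PBS samples, and leaving out 1 PBS sample changed the differences little while the adjusted p crossed 0.05.

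The called kappa variable genes were spread over families and over the locus. By family, 7 of 8 Igkv4 probe sets were higher at 72 h (median 2.07), as were all 3 of Igkv10 (median 1.93) and 2 of 3 of Igkv6 (median 1.87). The Igkv4 count takes in the 4 called probe sets that also match Igkc, which were already counted above. The family counts include probe sets that passed the filter only through the ragweed 72 h samples, such as 102157_f_at of Igkv10. Only 1 of 3 was higher in Igkv1 and in Igkv9, and 0 of 3 in Igkv8 and Igkv14, whose medians were 0.99 and 1.43. In RefSeq's GRCm38.p6 annotation, where 162 Igkv genes are listed on chromosome 6 ahead of Igkc, the called single-gene probe sets ran from Igkv1-133, the 6th in order, to Igkv6-14, at place 148. Probe sets of 1 gene could differ: Igkv6-14 97569_at read 358 and 457 in PBS 72 h and 292 and 331 in ragweed 72 h, against the rise of 101331_f_at. Family probe sets share probes that match several genes, so these counts are not counts of independent genes.

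Calls were also counted by ID ending, without a test. At 72 h, 20 of 29 probe sets with the gene family ending _f_at were higher, with a median of 1.65, against 5 of 33 others, with a median of 0.49. At 24 h the counts were 5 of 29 and 2 of 33. Called probe sets that passed the filter only through the ragweed 72 h samples are included, several of them ending _f_at. Their 72 h rise is favoured by construction, and the endings were not counted without them. Nor was the called share of _f_at probe sets counted over all those tested.

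The lambda light chain, a minor light chain in mice, had 3 tested probe sets and 1 call, which passed the filter only through the ragweed 72 h samples. The probe set 93638_s_at, matched to Iglc1 and Iglv1, was at the floor in all 6 samples outside ragweed 72 h and read 669 and 602 there, a rise of at least 1.12 ± 0.15 (adjusted p = 0.0209). Iglv1 165943_f_at read 590 and 678 in PBS 24 h, 1574 and 1222 in ragweed 24 h, 1267 and 1611 in PBS 72 h, and 3644 and 2905 in ragweed 72 h. Its differences of 1.13 and 1.19 were not called (adjusted p = 0.285 and 0.203). Iglc1 93639_r_at, the single-gene probe set of the lambda constant gene, differed by -0.14 at 24 h and -0.18 at 72 h and was not called. Among the probe sets matched to several heavy genes, 92470_f_at differed by 1.06 and 99421_at by 0.20 at 72 h, and neither passed.

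Ragweed lungs at 72 h exceeded ragweed lungs at 24 h in 22 of the 62 probe sets (35.5%), against 0.238% of all probe sets, and 20 of the 22 were also called against PBS at 72 h. Over the 48 that passed the filter without the ragweed 72 h samples, 15 were called. Ighm 101870_at rose by at least 4.67 between these groups (adjusted p = 0.00028) and Ighm 93583_s_at by 1.31 (adjusted p = 0.00694). Without ragweed 24 h sample 1a, ragweed 24 h sample 1b or ragweed 72 h sample 1a, 2 of the 22 calls remained, and without ragweed 72 h sample 1b there were 8. Averaged over both times, ragweed exceeded PBS in 22 probe sets, against 0.463% of all those tested, and 18 of these were among the 48. That count ran from 9 to 13 when any 1 sample was left out, the lowest without PBS 72 h sample 1a or 1b.

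The test of the difference itself, the 72 h response minus the 24 h response, called 1 member higher, Ighm 101870_at, which was also the single probe set called higher of all tested (0.00396%). With all 4 samples of 24 h at the floor, its 24 h response was not measured. The fit enters it as 0 with no spread, so the fitted 3.41 ± 0.29 (adjusted p = 0.00868) is the 72 h difference set against floored values, and its p may be too small. Without any 1 of the ragweed 24 h, PBS 72 h or ragweed 72 h samples the count was 0. At an unadjusted p under 0.05, 28 members had a larger response at 72 h and 2 a smaller one, beside 1857 of all 25250 probe sets in either direction. Counting the 14 that passed the filter only through the ragweed 72 h samples tilts this toward 72 h by construction. The median of the 72 h minus 24 h values was 0.54 over the 62 and 0.37 over the other 48. So 19 probe sets were called at 72 h and not at 24 h, and for 18 of those 19 a difference between the times did not pass the test. The opposite case was 93086_at, whose 72 h minus 24 h value was -3.48 and did not pass.

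**Figure D3:**
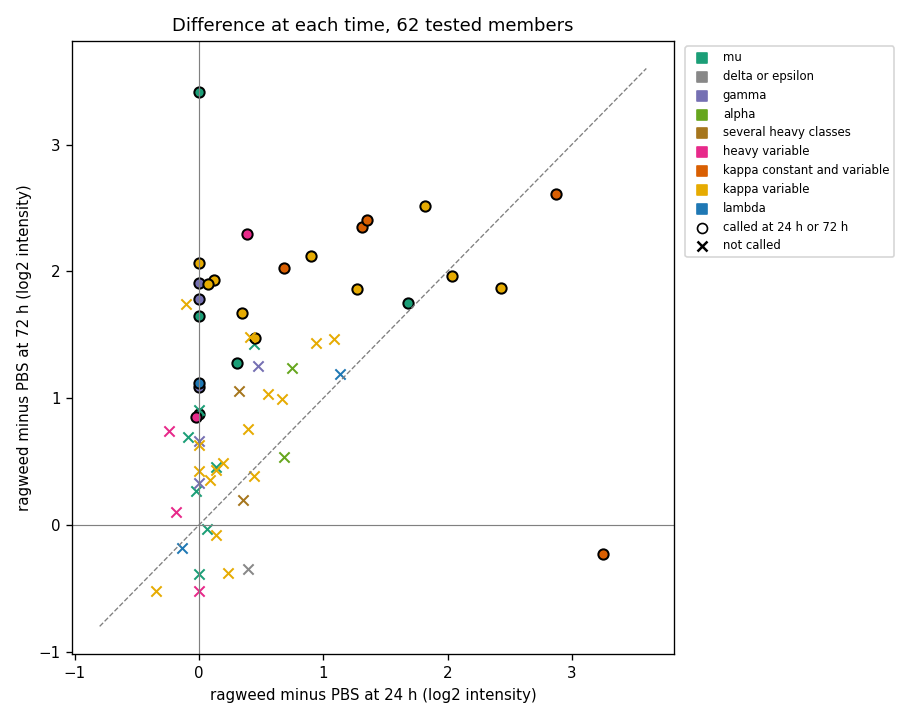
Log2 difference between ragweed and PBS at 24 h (horizontal) and at 72 h (vertical) of the 62 tested immunoglobulin probe sets, coloured by chain class; ringed points were called at 24 h or 72 h, crosses at neither, and the dashed line marks equal differences. Most points lie above the line, several called ones at 0 on the 24 h axis where all samples of 24 h were at the floor, and 93086_at lies alone at 3.25 and -0.23. The 14 members that passed the filter only through the ragweed 72 h samples are included, which favours places above the line by construction.

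The PBS groups differed from each other too. In PBS 72 h, 4 of the 62 probe sets (6.45%) were higher than in PBS 24 h and none was lower, against 0.186% of all probe sets higher. At an unadjusted p under 0.05 limma gave 24 higher and 1 lower, beside 2107 of all 25250 probe sets in either direction. Both PBS 72 h samples exceeded both PBS 24 h samples in 32 (51.6%), against 17.5% of all those tested. The 4 were Igkv6-23 102156_f_at (2.57 ± 0.12, adjusted p = 0.000357), 93086_at (2.36 ± 0.32, adjusted p = 0.03), 101640_f_at (2.12 ± 0.18, adjusted p = 0.0052) and Ighm 93583_s_at (1.23 ± 0.12, adjusted p = 0.00691). For Igkv6-23 the 2.57 between the PBS groups stands beside 1.87 for ragweed against PBS at 72 h, and both comparisons use the PBS 72 h samples. Without 1 sample the count was 1 (without PBS 24 h sample 1a or either PBS 72 h sample) or 2 (without PBS 24 h sample 1b), and 3 or 4 without a ragweed sample.

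Other tissue markers also moved between the PBS groups. The summed intensity of 12 heart and skeletal muscle markers was 15302 and 15940 in the PBS 24 h samples, 18729 and 21112 in ragweed 24 h, 31495 and 33348 in PBS 72 h, and 18747 and 19537 in ragweed 72 h. Between the PBS groups 1 of the 12 was called, Acta1, the skeletal muscle actin gene, which read 2406 and 2003 in PBS 24 h and 8395 and 8395 in PBS 72 h (1.94, adjusted p = 0.0013). Acta1 was also higher in ragweed than in PBS at 24 h (1.64, adjusted p = 0.00127), and the cardiac genes Nppa and Myl7 were lower in ragweed at 72 h. The 6 lung epithelial markers moved in opposite directions between the PBS groups. The club cell genes Scgb1a1 and Cyp2f2 rose from PBS 24 h to PBS 72 h, by 1.27 (adjusted p = 0.0057) and 1.68 (adjusted p = 0.000655), while Sftpc, Ager and Sftpa1 differed by -0.40, -0.27 and -0.53 and were not called. Their sum, in which the brightest probe sets weigh most, was 140659 to 143368 in PBS 24 h, 174993 to 177790 in ragweed 24 h, 175805 to 179399 in PBS 72 h and 160012 to 170803 in ragweed 72 h. Over 10 T cell markers, 3 of them at the floor in all samples, the sum ranged from 5171 to 5209 in PBS 24 h, 3765 to 3976 in ragweed 24 h, 4733 to 4890 in PBS 72 h and 4319 to 4719 in ragweed 72 h. Of 4 thymus markers, Rag1 and Ptcra were at the floor in all 8 samples. Dntt read 351 and 397 and Cd1d1 292.4 and 433 in PBS 72 h, and both were at the floor in the 6 other samples, with differences between the PBS groups that were not called (adjusted p = 0.472 and 0.76). The thymus list summed to 1166 in every sample outside PBS 72 h and to 1226 to 1413 there. The sum over 3 lymph node stroma markers was 1787 to 2379 in PBS 24 h, 1862 to 1977 in ragweed 24 h, 2617 to 3313 in PBS 72 h and 2341 to 2447 in ragweed 72 h. Among these Glycam1, an adhesion ligand of lymph node vessels, read 784 and 1145 in PBS 24 h, 552.5 and 521 in ragweed 24 h, 1619 and 1919 in PBS 72 h, and 1036 and 1338 in ragweed 72 h. Glycam1 was called lower in ragweed 24 h than in PBS 72 h, at -1.72 (adjusted p = 0.0384), and not between the PBS groups (0.90, adjusted p = 0.322). Muscle, thymus and stroma sums were thus highest in the PBS 72 h samples, in which 32 of the 62 immunoglobulin probe sets lay above both PBS 24 h samples. What part such differences between samples have in the immunoglobulin values was not tested.

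All samples except the ragweed 24 h ones were also measured on version 2 of the A array, which gives a second reading of the 72 h comparison. Of 52 members tested on both versions, 47 had a 72 h difference of the same sign, and all 25 called on the first version were higher in ragweed on version 2. These 25 include 8 that passed the first-version filter only through the ragweed 72 h samples, which favours a rise by construction. The same-sign count was made neither without such members nor over all probe sets. Fewer passed there: 9 members were called, 7 of them among the 25, against 0.182% of all probe sets tested on that version with first-version B and C. The median difference over the 52 was 1.26 on the first version and 1.54 on version 2. Ighm 101870_at on version 2 read 781 and 2997 in PBS 72 h and 12043 and 10654 in ragweed 72 h, a difference of 2.89 ± 0.53 (adjusted p = 0.13). The Igkv10-96 probe set 102157_f_at, at 2.64 ± 0.22, and Ighg3 93927_f_at, at 2.37 ± 0.23, were called on both versions. On the first version both passed the filter only through the ragweed 72 h samples, which favours a rise there by construction.

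Besides the larger median difference on version 2, the versions disagreed in 2 respects. On version 2, PBS 72 h sample 1b was higher than 1a in 43 of the 52 members, with a median difference of 0.465 and 14 members over 1, whereas on the first version the median was 0 and 1 member was over 1. And 93086_at, the largest rise at 24 h, read 11442 and 13543 in PBS 24 h, 11164 and 3937 in PBS 72 h and 8132 and 7556 in ragweed 72 h on version 2. Its PBS 72 h minus PBS 24 h difference was thus 2.36 on the first version and -0.91 on version 2, while for Igkv6-23 102156_f_at it was 2.57 and 1.99 and called on both. With no version 2 reading of ragweed 24 h, the 24 h rise of 93086_at rests on the first version.

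**Figure D4:**
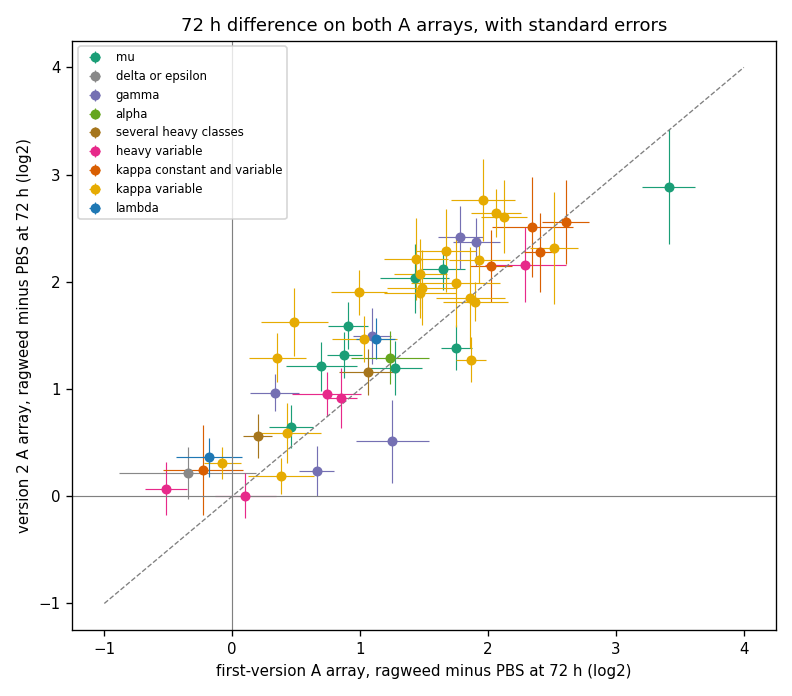
Log2 difference between ragweed and PBS at 72 h on the first version of the A array (horizontal) and on version 2 (vertical) for the 52 immunoglobulin probe sets tested on both, coloured by chain class, with standard errors; the dashed line marks equality. The points rise along the line, with a larger median on version 2 (1.54) than on the first version (1.26). Errors are larger on version 2 for many kappa and mu probe sets.

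Of the 13 probe sets that were not tested, 11 were above the floor on at most 1 array and 2 were on no main table. The first-version C array held 1 of these, Iglv1 130043_f_at, a lambda variable probe set. It read 3411 and 1906 in PBS 24 h, 4057 and 1842 in ragweed 24 h, 3532 and 4730 in PBS 72 h, and 7921 and 8636 in ragweed 72 h. Its difference of 1.02 ± 0.38 at 72 h was not called (adjusted p = 0.415). Several-class 97575_f_at (Ighg3, Igha and Ighm) was at or below the floor in all version 2 PBS samples and read 504 and 588 in ragweed 72 h, at least 1.19 ± 0.18 higher (adjusted p = 0.0739).

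Genes that accompany antibody secretion were read from lists of 1 probe set per gene. Of 9 tested plasma cell genes, 1 was higher at 24 h and 2 at 72 h. Jchain (102372_at), the chain that joins IgM and IgA units, was at the floor in both PBS 24 h samples and read 1241 and 1209 in ragweed 24 h, 1139 and 1174 in PBS 72 h, and 3762 and 4184 in ragweed 72 h. Its ragweed 24 h and PBS 72 h samples lay close together, as those of Igkv6-23 did. Mzb1 (111469_at), which helps antibody assembly in the endoplasmic reticulum, read 445 and 432 in PBS 72 h and 3356 and 3467 in ragweed 72 h. Xbp1, a transcription factor of secreting cells, differed by 0.27 at 72 h and was not called. At 72 h 6 of the 9 differences were above 0. The others were Sdc1, the plasma cell surface proteoglycan CD138 gene, at -0.58 (and -0.82 at 24 h), Tnfrsf13b at -0.46 and Derl3 at -0.03, none of them called.

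The B cell surface and transcription list had 12 tested genes, of which 0 were higher or lower at 24 h by limma, with 1 higher and 1 lower at an unadjusted p under 0.05. At 72 h 1 was higher, Cd22, an inhibitory receptor of B cells, at 328 and 292 in PBS and 783 and 826 in ragweed. Of the 12 differences at 72 h, 9 were above 0, and their median was 0.25. At an unadjusted p under 0.05 limma gave 3 higher and 1 lower there. Cd79a, a signalling subunit of the B cell receptor, read 2340 and 2203 in PBS 72 h and 1534 and 1554 in ragweed 72 h, a difference of -0.56 that was not called. The summed intensity of the list was 7415 and 8352 in PBS 24 h, 8254 and 8405 in ragweed 24 h, 9221 and 10108 in PBS 72 h, and 11364 and 11371 in ragweed 72 h.

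Among 6 tested immunoglobulin receptor and transport genes, 2 were higher at each time. Pigr, the receptor that carries IgA and IgM across epithelium, read 2108 and 1856 in PBS 24 h, 6660 and 7006 in ragweed 24 h, 3034 and 3046 in PBS 72 h, and 8240 and 7798 in ragweed 72 h. The other was Fcgbp, a mucus protein named for binding IgG, which rose by 2.89 at 24 h and 2.20 at 72 h. None of 6 tested genes of class switching and B cell help was called at either time (limma gave 1 at 24 h and 0 at 72 h at an unadjusted p under 0.05). Il4 and Il13, cytokines that direct switching to IgE, were at the floor in all samples. Neither was any of 3 tested genes of V(D)J recombination and the surrogate light chain, with 0 at 24 h and 2 lower at 72 h at an unadjusted p under 0.05.

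**Figure D5:**
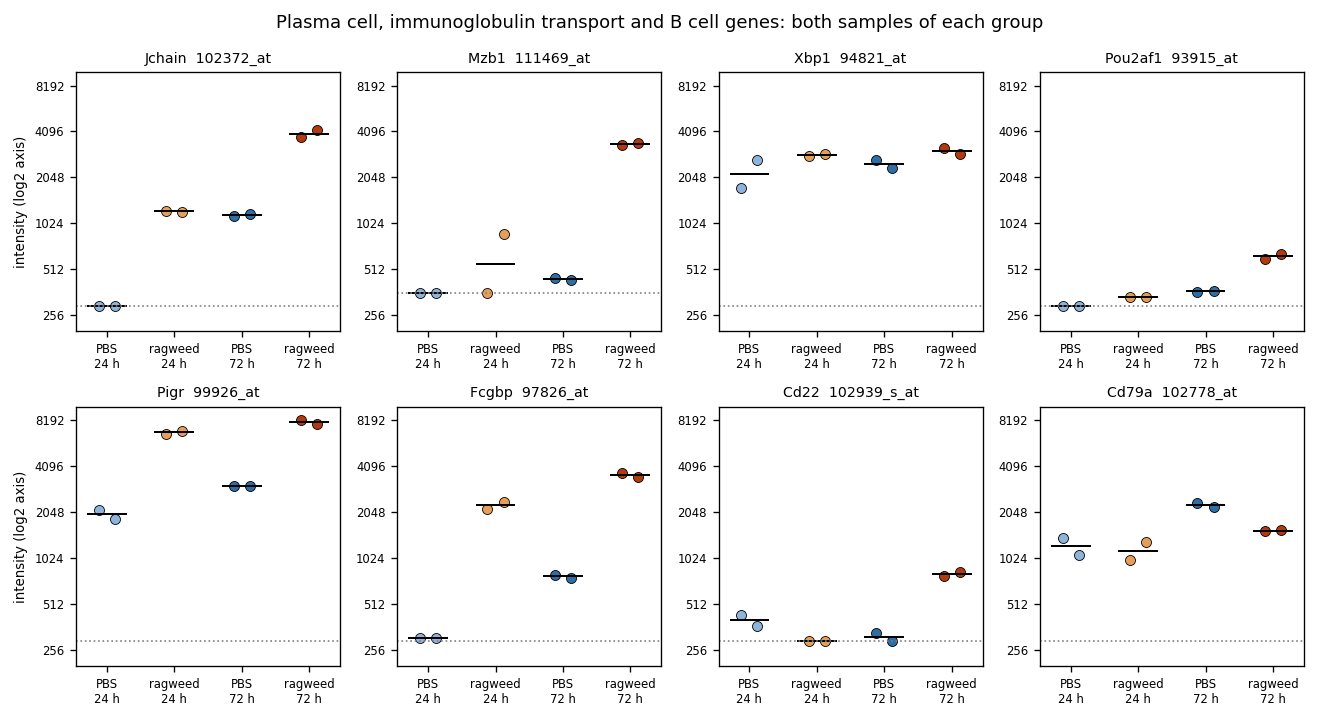
Intensity on a log2 axis of 8 genes of plasma cells (Jchain, Mzb1, Xbp1, Pou2af1), immunoglobulin transport (Pigr, Fcgbp) and B cells (Cd22, Cd79a) in the 4 groups; points are samples, the bar is the mean of the 2 log2 values and the dotted line is the floor of that gene's table. Jchain and Mzb1 are highest in ragweed 72 h, while Cd79a is highest in PBS 72 h.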

How the data were processed

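The authors deposited linear intensity values, 1 per probe set and array, for murine U74 A, B and C arrays in a first version and a version 2 (6 tables). The software behind the deposited intensity values was not given in the sources used here. One unlettered ragweed 24 h array equalled sample 1a divided by 2.627 and was left out, leaving 46 of 47 arrays. First-version A, restricted to the 9977 IDs shared with version 2, was brought to a 2% trimmed mean of 800 per array, then quantile normalized as log2 values, because the deposited PBS arrays of that version had not been scaled. The version 2 tables of B and C were used as deposited, in log2. Control probe sets were removed. Values under the 40th percentile of a table were raised to it, and probe sets above it on at least 2 arrays were tested. Values at the floor add no spread, so standard errors and p-values of groups at the floor may be too small. The number of arrays limits the precision.

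Each table was fitted with limma 3.58.1 (R 4.3.3; lmFit and eBayes with a trend, 1 mean per group, 8 samples). Benjamini-Hochberg adjustment pooled the 3 tables within a contrast, and an adjusted p under 0.05 was called. Differences are on the log2 scale with standard errors, and are given as "at least" where the lower group was at the floor. The script was tested on simulated data. Symbols came from the array annotation, and GRCm38.p6 served only for gene order. Named probe sets were the brightest tested single-gene one per constant gene, the 8 largest called rises and 3 largest falls at each time, and the 6 largest called PBS differences. Other members given with values were chosen after their values were seen. Members and gene lists were chosen with earlier results of these data known. The sample letters were not shown to pair the samples: deviations from group means correlated between -0.079 and 0.044. Weak correlations of this kind cannot exclude a pairing. Alternatives are listed in the closing section.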

Additional observations from a re-analysis of the deposited data

Results flagged for a closer look

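The fitted 72 h response of Ighm 101870_at minus its 24 h response was 3.41 (limma adjusted p = 0.00868), the one test of a difference between the times that a member passed. The 24 h response itself was not measured: all 4 samples of 24 h were at the floor, at which values are equal by construction and add no spread. The ragweed 72 h samples read 7292 and 7592 against 690 and 707 in PBS 72 h. The call was lost without any 1 of the ragweed 24 h, PBS 72 h or ragweed 72 h samples, and with the floor at the 20th percentile. Version 2 of the array, with no ragweed 24 h reading, gave PBS 24 h values of 20 and 20 before the floor.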

How the results depend on the processing

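The counts of called probe sets were the least stable values, while directions mostly held. At 24 h the count of 7 was 4 with single-symbol probe sets only, 4 with only the 2 groups compared, 0 against the PBS samples of 72 h, and 3 to 7 when 1 sample was left out. At 72 h the count of 25 was 9 on the other array version, 13 with the floor at the 20th percentile, 13 with only the 2 groups compared, 38 against the PBS samples of 24 h, 38 against those of both times, and 7 to 18 without 1 sample. The count of 22 for both times was 9 to 13 without 1 sample. The count of 22 for ragweed 72 h against 24 h was 14 with the lower floor, 7 with only those groups, and 2 to 16 without 1 sample. The count of 4 between the PBS groups was 1 on the other version, 8 with adjustment within each table and 1 to 4 without 1 sample. The count of 1 for the difference between the times was 0 with the lower floor, 2 with a floor at the 60th percentile, 8 with no filter, 6 with adjustment within each table (5 higher and 1 lower) and 0 to 1 without 1 sample. The cause of these changes was not tested. Fewer samples leave fewer residual degrees of freedom. Where a group was left with 1 sample, that sample was assumed to vary like the others.

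With the replicate block (letters 1a and 1b, which were not shown to pair the samples) the counts were 7, 17, 15, 1, 4 and 17 for 24 h, 72 h, both times, the difference, the PBS groups and the ragweed groups. The counts of non-overlapping members, 26 and 49, were 32 and 50 without a floor. Against the PBS samples of 72 h, the 24 h median became -0.11 for alpha and -0.030 for kappa variable, and Igkv6-23 102156_f_at -0.14. Of the calls of named members, 7 at 24 h and 11 at 72 h, none was kept under every alternative: those at 24 h were lost against the PBS samples of 72 h, and 10 of the 11 at 72 h on the other version. That version holds no A arrays of ragweed 24 h, so contrasts with that group have no value there.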
